A study of Mus musculus with 3 samples.

Results

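Expression of 8 primordial germ cell genes was read in endoderm, mesoderm and epiblast of embryos of the outbred ICR mouse stock, taken at E7.5 (embryonic day 7.5), with 1 Affymetrix mouse genome array for each germ layer. The genes were Prdm1, Prdm14, Tfap2c, Dppa3, Nanos3, Ifitm1, Ifitm2 and Ifitm3, and every probe set (a group of short oligonucleotides against a transcript) that carries one of these symbols was taken. There were 9 such probe sets for 7 genes, out of 45037 probe sets on the array and 18193 named genes. Nanos3, an RNA-binding protein needed for the survival of germ cells, had no probe set of its symbol and was not analysed here. The embryos were untreated. Only the embryonic region was kept, cut from the extra-embryonic part before the layers were parted with enzymes and needles, and the epiblast sample held the neuroectoderm and the primitive streak. The sources used here do not say how many embryos gave the RNA of an array. With 1 array per layer no difference has a replicate check and no p-value is given.

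Primordial germ cells are the founders of sperm and eggs. In the mouse they are set aside at gastrulation from the proximal posterior epiblast, in answer to BMP signals from extra-embryonic tissue and to WNT signals, and first form a small cluster at the base of the allantois, on the border of the embryonic and extra-embryonic regions. Prdm1 (Blimp1), Prdm14 and Tfap2c (AP2gamma) are the transcription factors that start the germ cell programme, Dppa3 (Stella) and Nanos3 follow in the cells once they are set aside, and Ifitm3 (Fragilis) and Ifitm1 mark the region in which the precursors gain competence. None of these genes belongs to germ cells alone. Prdm1 is also made in visceral endoderm, Tfap2c in trophoblast and surface ectoderm, and the Ifitm genes encode interferon-inducible membrane proteins that restrict viruses in many cell types.

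Ifitm1, Ifitm2 and Ifitm3 lie beside each other on chromosome 7 and were above the median of all values on all 3 arrays. The stretches before their annotated transcription starts are shown since neighbours of 1 family were read in different patterns across the layers. Each stretch is 250 bases long, from RefSeq on build GRCm38.p6, and runs 5′ to 3′ on the strand of the gene. Capitals mark matches to the core of the interferon-stimulated response element, written as GAAA, any 2 bases and GAAA, on either strand.

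Ifitm1, chr7:140967826-140968075, plus strand: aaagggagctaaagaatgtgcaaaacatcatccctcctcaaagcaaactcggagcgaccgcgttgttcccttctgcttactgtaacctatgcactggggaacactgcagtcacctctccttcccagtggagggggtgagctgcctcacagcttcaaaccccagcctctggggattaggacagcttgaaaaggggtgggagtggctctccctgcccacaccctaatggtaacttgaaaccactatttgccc
Ifitm2, chr7:140955962-140956211, minus strand: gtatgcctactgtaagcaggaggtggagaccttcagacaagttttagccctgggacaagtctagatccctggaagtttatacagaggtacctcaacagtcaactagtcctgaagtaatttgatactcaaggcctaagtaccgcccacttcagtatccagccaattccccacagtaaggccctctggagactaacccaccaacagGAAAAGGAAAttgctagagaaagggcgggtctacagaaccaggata
Ifitm3, chr7:141010745-141010994, minus strand: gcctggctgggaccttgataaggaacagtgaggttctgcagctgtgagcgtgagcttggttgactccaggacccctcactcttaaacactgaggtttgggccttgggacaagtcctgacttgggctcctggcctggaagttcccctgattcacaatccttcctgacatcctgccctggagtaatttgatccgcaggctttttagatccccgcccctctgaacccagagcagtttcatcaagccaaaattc

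The Ifitm2 stretch held 1 match, which began 46 bases before the start. The stretches of Ifitm1 and Ifitm3 held none, but Ifitm3 had 2 matches in the first 30 bases after its annotated start, chr7:141010715-141010744 on the minus strand, where capitals also mark the gamma-activated site (TTCNNNGAA) that overlaps the second of them.
Ifitm3, first 30 bases after the start: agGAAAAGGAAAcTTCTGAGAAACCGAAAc
The response element core was found in 2.98% of 32851 RefSeq windows of 250 bases before a start and in 3.44% of windows that run on for 50 bases after it. The gamma-activated site was in 8.3% of the longer windows. The GC-rich SMAD site GGCGCC, searched on both strands, was in 11.9% of the longer windows and in none of those of Ifitm1, Ifitm2, Ifitm3 and Prdm1. In local alignments of the windows of 300 bases, Ifitm2 and Ifitm3 shared 124 identical bases over 207 aligned columns (59.9%, score 41.0), and Ifitm1 scored 19.0 with Ifitm2 and 19.5 with Ifitm3. The pair of Prdm1 and Nanos3 scored above both Ifitm1 pairs, and the lowest score of any pair was 11.5. These matches describe letters and not binding.

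Values below are the deposited intensities on a linear scale, and a set of 3 values runs endoderm, mesoderm, epiblast. A floor was set at the median of all values, an intensity of 80.63, and a gene had to exceed it in at least 1 layer. A fold against a lower value that lies below the floor was computed with the floor in its place and is given as a lower bound. Counts by gene, sums over lists and statements that a gene lay below the floor use 1 probe set per gene, that of highest mean log2 value. Probe sets of the same gene varied among themselves, over 5536 genes, with a pooled SD of the log2 difference of 0.40 (endoderm minus epiblast), 0.27 (mesoderm minus epiblast) and 0.39 (endoderm minus mesoderm). This is the spread between probe sets on the same arrays and not between embryos.

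Of the 7 genes read, 5 exceeded the floor (Prdm1, Tfap2c, Ifitm1, Ifitm2 and Ifitm3), where 12785 of all 18193 named genes did. Of the 9 probe sets of the 7 genes, 7 exceeded it, where 24868 of all 45037 probe sets did. These counts are thus no trait of the germ cell genes. The layer of highest intensity was the endoderm for Prdm1, the mesoderm for Ifitm1 and the epiblast for Tfap2c, Ifitm2 and Ifitm3. No single layer held the highest value of all of them. The median intensities of the whole arrays were 79.9, 79.9 and 82.2.

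**Figure D1:**
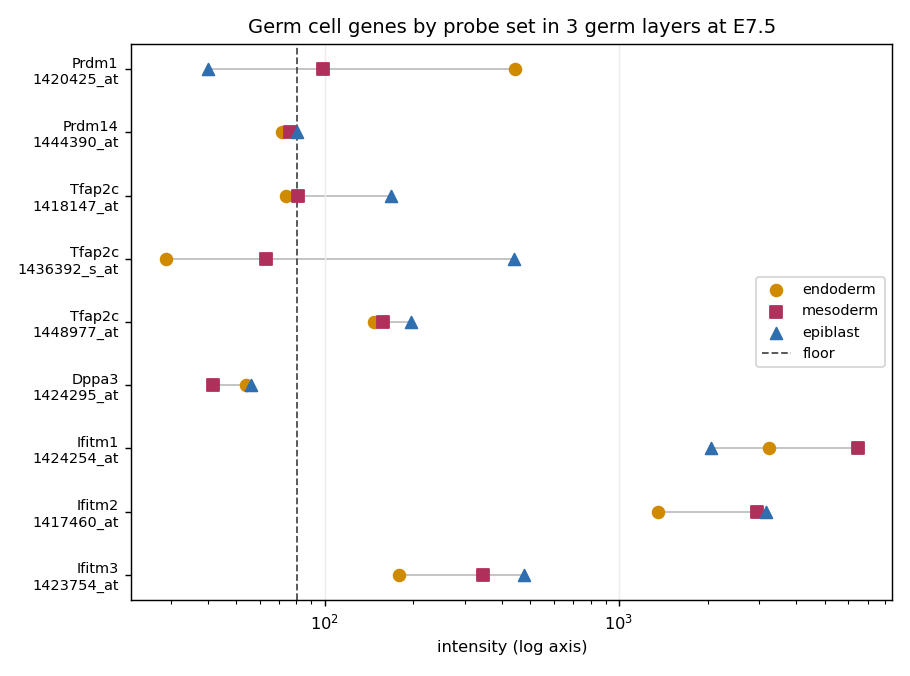
Intensity on a log axis of the 9 probe sets of the germ cell genes (rows) in endoderm, mesoderm and epiblast, with 1 array per layer and a dashed line at the floor, 80.63. Prdm1 was brightest in endoderm (442), Ifitm1 in mesoderm (6478) and the _s_at probe set of Tfap2c in epiblast (441), while Prdm14 and Dppa3 stayed below the floor.

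Prdm1, the repressor that shuts off somatic genes in germ cell precursors, was 442, 98.8 and 40.1 on its only probe set. It was well above the floor in endoderm, just above it in mesoderm and below it in epiblast. The endoderm value exceeded that of mesoderm 4.48-fold and that of epiblast at least 5.49-fold. For mesoderm against epiblast the log2 difference of the deposited values was 1.30, past 2-fold, but the bound was only 1.23-fold because the epiblast value lay below the floor. As the samples are bulk tissue, fewer cells that make a transcript and less transcript per cell cannot be told apart here. Visceral endoderm markers were high in the same endoderm sample. All 13 measured genes of that list were 2-fold or more higher in endoderm than in epiblast (12.5% of all genes above the floor). They were also 2-fold or more higher than in mesoderm (11.4%). Their summed intensities were 80700, 2060 and 1760. Other probe sets of these genes did not all follow, such as those of Afp at 23.7, 24.2 and 17.3 and of Lrp2 at 68.5, 86.1 and 78.3. The part of the visceral endoderm genes in the Prdm1 difference was not tested. Genes with the pattern nearest to Prdm1, by the Euclidean distance of the 3 gene-centred log2 values raised to the floor, were Pdia5 (1210, 289 and 223), S100a1 (726, 157 and 121) and Xpr1 (2110, 484 and 422), at distances of 0.07, 0.10 and 0.10. Over 3 values likeness is easily had, and 49 genes lay within a distance of 0.25.

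Prdm14, the factor that keeps pluripotency genes on in germ cells and holds back DNA methylation, was 71.6, 76.1 and 80.56 on its only probe set. All of these lay below the floor, the epiblast value by a narrow margin, so the array gives only a bound for this gene. The values spanned 0.17 on the log2 scale, less than the spread between probe sets for each pair of layers.

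Tfap2c, the AP-2 factor that acts downstream of Prdm1, was read by 3 probe sets, and all were highest in epiblast. They did not have like sizes of difference. The probe set 1436392_s_at was 28.8, 63.0 and 441, at least 5.47-fold higher in epiblast than in endoderm and in mesoderm. The probe set 1418147_at was 73.6, 81.0 and 168, with endoderm at least 2.09-fold and mesoderm 2.08-fold lower than epiblast. The probe set 1448977_at was 146.7, 157 and 196, and endoderm and mesoderm were within 1.34-fold and 1.25-fold of epiblast. The last has the highest mean log2 value and therefore stands for the gene in the counts by gene, which hides the differences read by the others. For endoderm against epiblast the log2 differences of the 3 probe sets ran from -3.93 to -0.42, many times the pooled spread of 0.40. The -3.93 rests on the endoderm value of 28.8, below the floor, where only the bound of at least 5.47-fold holds. The size of the epiblast excess was therefore not settled by this array. Its relative Tfap2a, a factor of surface ectoderm and neural crest, showed a similar disagreement. Its probe sets were 41.4, 49.9 and 394, then 90.4, 109 and 343, and the third, below the floor in all layers, was 50.7, 52.3 and 63.1. Tfap2b, Tfap2d and Tfap2e were below the floor in all layers. Cross-hybridisation between genes of this family was not tested.

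Markers of trophoblast, which also makes Tfap2c, gave summed intensities of 4270, 2840 and 3980 over 12 measured genes. Of these 9 exceeded the floor, and Elf5, Tpbpa and Rhox9 did not. The sums were carried by Cdx2 (1283, 932 and 1817) and Eomes (773, 470 and 886) and, in endoderm, also by Plac1. By the probe set that stands for each gene, 2-fold was passed by Plac1 and Rhox6. Plac1 (1138, 306 and 68.2) was higher in endoderm and mesoderm than in epiblast, where 12.5% and 3.44% of all genes above the floor were. Plac1 was also higher in endoderm than in mesoderm, where 11.4% of all genes were. Rhox6 (119, 46.6 and 59.6) was higher in endoderm than in mesoderm, though at least 1.47-fold by the bound. Other probe sets of this list differed more than the one that stood for the gene. Hand1 had one at 80.5, 477 and 157, and Plet1 had one at 278, 40.8 and 55.8, while those that stood for them were within 2-fold. Their part in the Tfap2c values was not tested. The genes nearest in pattern to the probe set 1436392_s_at were Slc7a3 (196, 208 and 1120), Mcf2 (24.7, 9.01 and 497) and Dtx3l (121, 113 and 546), at distances of 0.06, 0.14 and 0.20, and 6 genes lay within 0.25. Those nearest to 1418147_at were Acrbp (218, 219 and 436), Mapk4 (126, 128 and 254) and Cpt1c (59.5, 73.5 and 177), at 0.05, 0.05 and 0.06, and 74 genes lay within 0.25.

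Dppa3, a maternal factor and an early marker of germ cells that have been set aside, was 53.9, 41.8 and 56.2 on its only probe set. No layer exceeded the floor, and the highest value was in epiblast by a margin of 0.06 on the log2 scale over endoderm. For Prdm14 and Dppa3 the array therefore shows no level above the floor in any layer, which does not show that the transcripts were absent from a small number of cells.

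**Figure D2:**
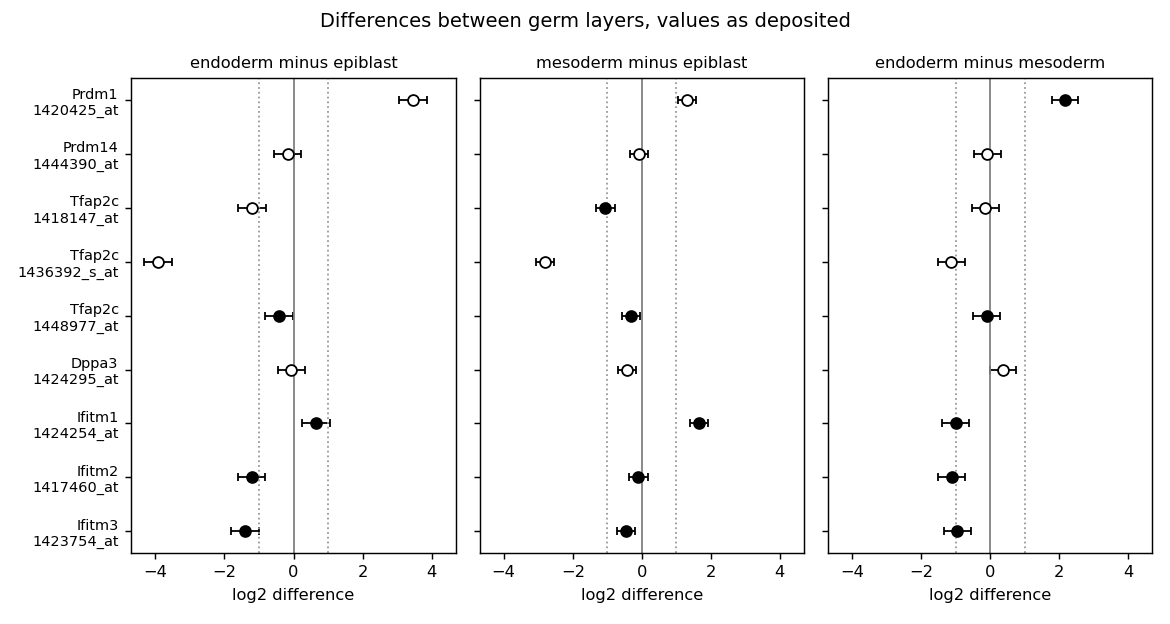
Log2 difference of each probe set for endoderm minus epiblast, mesoderm minus epiblast and endoderm minus mesoderm. Bars are plus and minus 1 pooled SD between probe sets of the same gene (0.40, 0.27 and 0.39), open symbols have at least 1 of the 2 values below the floor, and dotted lines mark 2-fold. Ifitm1, Ifitm2 and Ifitm3 lay together near -1 for endoderm minus mesoderm, and Ifitm1 lay apart from the others in both panels with epiblast.

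Ifitm1 was 3228, 6478 and 2055 on its only probe set. It was highest in mesoderm, by 3.15-fold over epiblast, while endoderm was 2.01-fold lower than mesoderm and 1.57-fold higher than epiblast. The protein is a small membrane protein of the interferon-inducible family. Ifitm2 was 1357, 2941 and 3150. Mesoderm and epiblast were level within 1.07-fold, and endoderm was 2.17-fold lower than mesoderm and 2.32-fold lower than epiblast. Ifitm3, the Fragilis gene that was described as a mark of germ cell competence, was 178, 345 and 474. Endoderm was 2.66-fold lower than epiblast and 1.94-fold lower than mesoderm, and mesoderm was 1.38-fold lower than epiblast.

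The Ifitm genes thus parted in mesoderm against epiblast. The log2 difference was 1.66 for Ifitm1, -0.10 for Ifitm2 and -0.46 for Ifitm3. Ifitm1 lay 1.76 above Ifitm2 and 2.12 above Ifitm3, where the spread between probe sets gives an SD of 0.38 for such a contrast, and Ifitm2 lay 0.36 above Ifitm3, within it. For endoderm against epiblast Ifitm1 lay 1.87 above Ifitm2 and 2.07 above Ifitm3, with an SD of 0.57. Between endoderm and mesoderm the 3 genes were close, with endoderm 2.01-, 2.17- and 1.94-fold lower, and their contrasts of 0.05 to 0.16 in size were below the SD of 0.55. Each of these genes had 1 probe set, and the family is alike in sequence, so cross-hybridisation between its members was not tested.

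Genes nearest in pattern to Ifitm1 were Klhl6 (141, 295 and 97.8), Ccdc80 (115, 241 and 50.2) and the smooth muscle gene Tagln (199, 413 and 140), at distances of 0.09, 0.10 and 0.10. Those nearest to Ifitm2 were Cmip (635, 1430 and 1490), Asap2 (271, 567 and 602) and Pitpnc1 (151, 316 and 332), at 0.04, 0.05 and 0.05. Those nearest to Ifitm3 were Satb1 (366, 719 and 1010), Psrc1 (400, 761 and 1090) and Armcx1 (393, 790 and 1040), at 0.03, 0.05 and 0.05. There were 18, 99 and 65 genes within 0.25 of Ifitm1, Ifitm2 and Ifitm3.

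The neighbours of the Ifitm genes were read in the gene order of RefSeq, taking the 4 protein-coding genes on either side, a set chosen after values had been seen. Ifitm5, the bone gene of the family, was 106, 95.3 and 101, and Ifitm6 was below the floor at 68.8, 61.2 and 57.9. Ifitm7 and Ifitm10, which are not in the stretch, were below the floor as well. B4galnt4, a glycosyltransferase gene on the far side of Ifitm6, was 292, 733 and 715, so endoderm was 2.51-fold lower than mesoderm and 2.45-fold lower than epiblast. Sigirr, a receptor of the interleukin-1 family, differed the other way at 483, 129 and 148. The remaining neighbours, Cox8b, Nlrp6, Pgghg and Pkp3, were within 2-fold in all layers or below the floor.

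**Figure D3:**
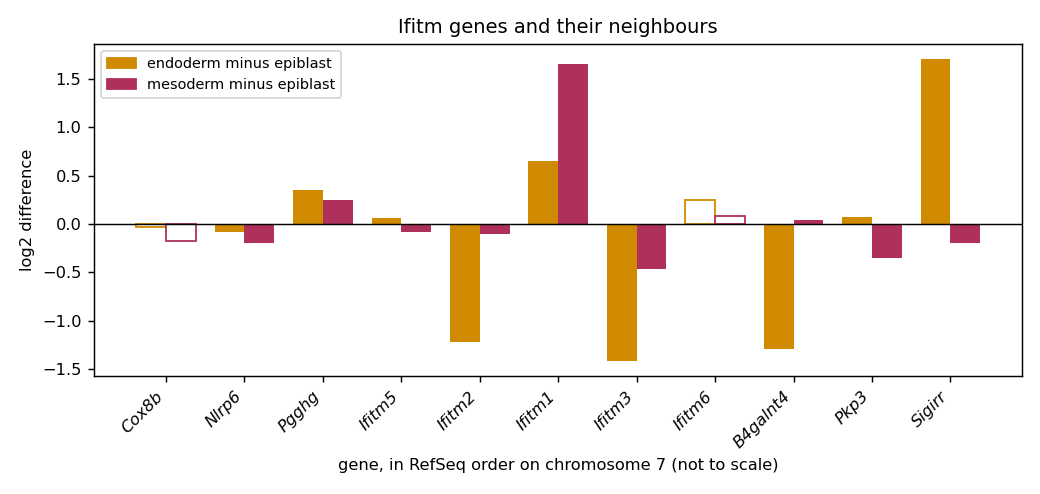
Log2 difference of endoderm minus epiblast and mesoderm minus epiblast for the Ifitm genes and their neighbours in RefSeq order on chromosome 7, 1 probe set per gene, with open bars for genes below the floor in all layers. Ifitm1 stands between Ifitm2 and Ifitm3 but is the only gene of the stretch past 2-fold in mesoderm minus epiblast (1.66).

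Other interferon-stimulated genes were set beside the Ifitm genes. Of 13 measured, 7 exceeded the floor, and Ifit1, Ifit3, Irf7, Stat2, Mx1 and Usp18 did not. For this and the lists below, 12785 of all 18193 named genes exceeded the floor. The single member past 2-fold was Bst2 (tetherin), which holds budding viruses at the cell surface, at 740, 82.6 and 440. Its mesoderm value was 8.96-fold lower than endoderm and 5.33-fold lower than epiblast. Of all genes above the floor, 11.4% were 2-fold or more higher in endoderm than in mesoderm, and 3.25% were lower in mesoderm than in epiblast. The median log2 differences of the 7 were 0.01 (endoderm minus epiblast), -0.24 (mesoderm minus epiblast) and 0.25 (endoderm minus mesoderm), against 0.05, -0.02 and 0.07 over all 12785 genes above the floor. Of 7 measured immune cell markers, Ptprc, Cd68, Lyz2 and Tyrobp were below the floor in all layers and 3 exceeded it. Csf1r was 279, 303 and 310, Cd52 was 60.2, 72.1 and 85.2, and Fcer1g was 196, 75.4 and 79.0, with endoderm at least 2.43-fold above the other layers. All 6 measured erythroid genes were below the floor in all layers, as were Pecam1, Cdh5, Tek, Tie1 and Cd34 of endothelium. The endothelial list summed to 517, 3910 and 632, carried in mesoderm by Kdr (142, 2300 and 147) and Etv2 (87.7, 1231 and 148), and the allantois and extra-embryonic mesoderm list summed to 679, 3550 and 725 over 9 genes. The decidua list, for maternal tissue, summed to 3380, 3630 and 1300 over 7 genes, carried by Igfbp4 (3066, 2643 and 876) and, in mesoderm, also by Hand2 (22.9, 577 and 23.4), while Prl8a2, Lum and Cryab were below the floor in all layers. The part of these lists in the Ifitm1 difference was not tested.

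Counted by gene, with 1 probe set each, 1 of the 5 germ cell genes above the floor was 2-fold or more higher in endoderm than in epiblast (Prdm1), where 12.5% of all genes above the floor were, and 2 were lower (Ifitm2 and Ifitm3), where 4.01% were. In mesoderm 2 were higher than in epiblast (Prdm1 and Ifitm1), against 3.44% of all genes, and 0 were lower, against 3.25%. In endoderm 1 was higher than in mesoderm (Prdm1), against 11.4%, and 2 were lower (Ifitm1 and Ifitm2), against 3.86%. The median log2 differences of the 5 genes were -0.42 (endoderm minus epiblast), -0.10 (mesoderm minus epiblast) and -0.95 (endoderm minus mesoderm). Counted by probe set, 5, 4 and 4 of the 7 above the floor were past 2-fold in either direction for these pairs, against 14.7%, 5.67% and 13.3% of all probe sets above the floor. Of these, 1436392_s_at of Tfap2c was counted for endoderm against mesoderm with both values below the floor. With so few genes, of which several are neighbours of 1 family, these shares are a description.

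Genes of the signals that induce germ cells did not share a layer of highest intensity. By the dissection only layers of the embryonic region were read. Visceral endoderm markers were nonetheless high in the endoderm sample, with summed intensities of 80700, 2060 and 1760. Of 9 listed genes of allantois and extra-embryonic mesoderm, 4 were 2-fold or more higher in mesoderm than in epiblast (3.44% of all genes). The other 5 were below the floor. The part of such cells in the values of these signals was not tested. Bmp4, the main inducer, was 113, 1552 and 184, and mesoderm exceeded epiblast 8.44-fold. Bmp2, which acts with it from the endoderm, was 1727, 810 and 49.7, so that endoderm exceeded epiblast at least 21.4-fold and mesoderm did so at least 10.05-fold. Bmp8b, a signal of extra-embryonic ectoderm, was close to the floor at 94.3, 84.4 and 84.3 on its brighter probe set, and Wnt3 was below it in all layers. Wnt3a was 94.4, 108 and 302, so endoderm was 3.20-fold and mesoderm 2.80-fold lower than epiblast.

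All 10 receptor and SMAD genes of the list exceeded the floor, and 3 were 2-fold or more higher in endoderm than in epiblast, where 12.5% of all genes were. They were the receptors Bmpr2 (488, 445 and 213) and Acvr1 (548, 404 and 273), each with other probe sets that differed less, and the effector Smad1 (1756, 1305 and 831), whose 3 probe sets ran the same way. Bmpr2 was also higher in mesoderm, and Bmpr1b was 26.0, 37.9 and 112, with endoderm and mesoderm at least 1.39-fold lower than epiblast by the bound. Of 5 measured target genes of BMP signals 3 were 2-fold or more higher in endoderm than in epiblast (12.5% of all genes). They were Msx1 (1731, 1044 and 505), Msx2 (702, 787 and 339) and Id2 (3298, 1250 and 1290). Msx1 and Msx2 passed 2-fold in mesoderm too (3.44% of all genes). The other probe set of Msx1, at 514, 417 and 378, was within 2-fold. Id1 (3152, 1235 and 1787) had an endoderm value 1.76-fold above epiblast and 2.55-fold above mesoderm, and Id3 (3129, 2780 and 2596) was within 1.21-fold. T (brachyury), the WNT target that turns on Prdm1 and Prdm14, was not among the named probe sets and was not analysed here.

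The listed antagonists of signals that exceeded the floor were highest in endoderm. Of 4 above the floor all were 2-fold or more higher there than in epiblast (12.5% of all genes), although Nog, at 84.8, 47.0 and 39.0, was at least 1.05-fold higher by the bound. Cer1, which binds and blocks Nodal and BMP ligands, was 4344, 1606 and 50.4, and Dkk1, an inhibitor of WNT, was 3326, 985 and 569. Lefty1 was below the floor in all layers.

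**Figure D4:**
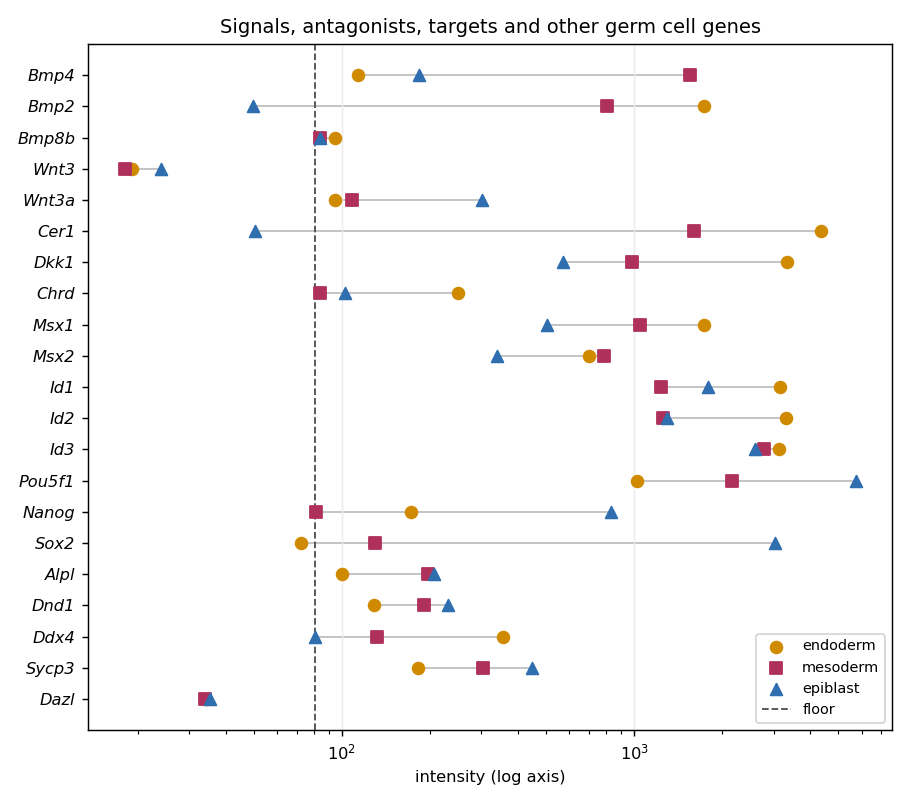
Intensity on a log axis of inducing ligands, antagonists, BMP target genes and other germ cell and pluripotency genes in endoderm, mesoderm and epiblast, 1 array per layer, with the floor dashed. Bmp4 was brightest in mesoderm (1552), Cer1 and Dkk1 in endoderm (4344 and 3326), Pou5f1, Nanog and Sox2 in epiblast, and Dazl was below the floor in all layers.

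Sox2, Nanog and Pou5f1, which germ cells share with the pluripotent epiblast, were highest in epiblast. Of 21 genes of their list above the floor, 5 were 2-fold or more lower in endoderm than in epiblast (4.01% of all genes) and 2 higher (12.5%), and 7 were lower in mesoderm (3.25%) and 2 higher (3.44%). Sox2 was 72.4, 130 and 3032, Nanog was 173, 81.3 and 830, and Pou5f1 (Oct4) was 1019, 2159 and 5735. Alpl, the alkaline phosphatase by which germ cells are classically stained, was 99.9, 198 and 206, so endoderm was 2.06-fold lower than epiblast. Dnd1, an RNA-binding protein that germ cells need to survive, was 129, 191 and 230, within 2-fold in all layers. Those higher outside the epiblast were the receptor Cxcr4 (495, 1138 and 83.5) and the ligand Kitl (2944, 605 and 283), which guide and sustain migrating germ cells, and the ligand Cxcl12, partner of Cxcr4, was 58.0, 82.3 and 718.

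Genes of later germ cells were mostly dark. Of 12 measured, 2 exceeded the floor, where 12785 of all 18193 named genes did. The other 10 were below the floor in all layers, among them Dazl, Mael, Stra8 and Sycp1. The exceptions were Ddx4 (the Vasa helicase) and Sycp3, a protein of the meiotic chromosome axis. Ddx4 was 355, 132 and 81.2 on its only probe set, with endoderm 4.37-fold above epiblast and 2.69-fold above mesoderm. Sycp3 was 182, 304 and 446, with endoderm 2.45-fold lower than epiblast. These genes had no direction in common.

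Among somatic genes that Prdm1 holds down in germ cells, Hoxb1 was 171, 2247 and 1470, Snai1 51.0, 289 and 135, Lhx1 1587, 1078 and 210, and Fgf8 102, 167 and 291. Of 5 measured, Lhx1 alone was 2-fold or more higher in endoderm than in epiblast (12.5% of all genes), and Hoxb1, Snai1 and Fgf8 were lower there (4.01%), Snai1 at least 1.67-fold by the bound. Of 9 genes for DNA and histone methylation above the floor, Dnmt3a (820, 1213 and 2296) was 2-fold or more lower in endoderm (4.01% of all genes) and Dnmt3b (5349, 3706 and 9027) in mesoderm (3.25%) than in epiblast, and the other 7 were within 2-fold. Another probe set of Dnmt3b, at 3950, 2472 and 8233, was 2-fold or more lower in endoderm as well as in mesoderm than in epiblast. Dnmt3a and Dnmt3b encode enzymes of de novo DNA methylation.

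The layer labels were checked with the markers of the study. Sox17 and Foxa2 were highest in endoderm (4170 and 3247), Kdr and Foxf1 in mesoderm (2300 and 1098) and Sox2 in epiblast (3032), but Pax6 was 181, 92.4 and 121 and did not stand out in epiblast. In mesoderm, the list of markers of extra-embryonic mesoderm and the allantois, beside which germ cells first gather, was split. Cdx4, Bmp4, Ahnak and Tal1 were 2-fold or more higher than in epiblast (3.44% of all genes above the floor). Tbx4, Hoxa10, Hoxa11, Hoxa13 and Postn were below the floor in all layers.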

How the data were processed

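Each of 3 germ layers, dissected from E7.5 embryos, was hybridised to 1 array from 100 ng of total RNA. Per the labels and the methods, the authors read the arrays with the manufacturer's software, used RMA for background correction and normalization, and the affy package for expression values. What the authors deposited is an intensity per probe set, linear and never below 1. RMA usually gives log2 values, and the sources used here do not say which step gave this form. Of 45037 probe sets, 34945 had 1 gene symbol, 932 had several and 9160 were not named, and only the first were used for genes. Intensities were converted to log2 (Python 3.11.15, pandas 2.3.3) and subtracted between layers. For counts by gene a gene was represented by its probe set of highest mean log2 intensity. A difference was counted at 2-fold with the highest value above the floor. Significance Analysis of Microarrays, the test named in the methods, needs replicates. Cyclic loess was run in limma 3.58.1. The counting code was run on simulated data with changes larger than 2-fold planted in genes well above the floor. The simulated noise was smaller than the spread between probe sets, so calls near 2-fold or near the floor were not tested. Windows were aligned in Biopython 1.88 (match 1, mismatch -1, gap opening -2, extension -0.5).

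Named in the text are the 8 germ cell genes with every probe set, up to 4 genes above the floor per gene list with the largest range over the arrays and any that went against the rest of its list, and, for each germ cell gene whose range was 2-fold or more, the 3 genes nearest in pattern. The neighbours of the Ifitm genes, the genes nearest to single Tfap2c probe sets and list members outside this rule were chosen after their values were seen. The germ cell genes and the lists were chosen with earlier results of these data known.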

Additional observations from a re-analysis of the deposited data

How the results depend on the processing

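There was 1 array per layer, so no array could be left out. No paired analysis was possible because each layer had 1 array. The counts of germ cell genes past 2-fold changed as follows. With a 3-fold limit 0 were lower in endoderm than in epiblast, 1 was higher in mesoderm than in epiblast and 0 were lower in endoderm than in mesoderm. With values raised to the floor 1 was higher in mesoderm than in epiblast, since Prdm1 was lost. With arrays centred on the housekeeping median 1 was lower in endoderm than in mesoderm, since Ifitm1 was at -0.93. With the mean of probe sets 1, Tfap2c, was lower in mesoderm than in epiblast, and likewise 1 with the probe set of highest single intensity, an alternative chosen after seeing the data. The other 53 recomputed counts stayed within 1.5 times, among them 3 lower in endoderm than in mesoderm after quantile normalization and after cyclic loess, where Ifitm3 joined.

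Of the recomputed log2 differences of single genes, 137 moved by less than the spread between probe sets, 10 by more, and 0 of the called ones changed sign. Many of the 137 could not move. All genes read but Tfap2c had 1 probe set, so the mean of probe sets and the probe set of highest single intensity returned the deposited value. This also limits the counts above. Raising values to the floor changed nothing for genes above it in all layers. Prdm14 and Dppa3, below the floor, were included. For endoderm against epiblast Tfap2c was -0.42 as deposited, -1.85 as a mean of probe sets and -3.93 with the probe set of highest single intensity. The last 2 draw on endoderm values below the floor. Ifitm3 passed 2-fold for endoderm against mesoderm after quantile normalization (-1.09) and cyclic loess (-1.01), and Ifitm2 in mesoderm against epiblast was 0.02 with housekeeping centring. For endoderm against epiblast the median of genes above the floor was 0.05 as deposited, -0.11 after quantile normalization and 0.26 with housekeeping centring, and the genes past 2-fold were 75.7%, 64.3% and 84.9% higher. Among all genes, a 3-fold limit left 774 of 1598 higher and 182 of 513 lower in endoderm than in epiblast, 181 of 440 and 193 of 415 in mesoderm than in epiblast, and 767 of 1458 and 220 of 493 in endoderm than in mesoderm. A floor at the 75th percentile left 325 of the 513 and 266 of the 415. Signals near the floor limit Prdm14, Dppa3 and the Prdm1 value in epiblast.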
